A study of Mus musculus with 10 samples.

Results

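The distal regions examined here held open chromatin summits in most lists of the first 12 h of GATA1 activation in G1E-ER4 cells. They held none in either list at 24 h. Their members were chosen by measured values: a region had to lie more than 1 kb from every protein-coding transcript start, to hold a peak summit in at least 6 of the 8 lists of 0, 2, 6 and 12 h, and to hold none in the 2 lists of 24 h. Of 28976 merged regions, 18667 were distal, 3475 of these were in at least 6 of the 8 earlier lists, and 551 of the 3475 were in neither 24 h list (15.9%). These 551 are called 24 h-absent regions. For comparison, 1830 of the 3475 were in both 24 h lists (24 h-present regions) and 1094 were in 1 of the 2 (24 h-discordant regions). A further set of 375 early-lost distal regions was in both 0 h lists and in none of the 4 lists of 12 h and 24 h, and 41 of these were also 24 h-absent regions.

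Open chromatin was mapped by ATAC-seq, an assay that uses the Tn5 transposase to cut accessible DNA and tag its ends. G1E-ER4 is a mouse erythroid progenitor line, derived as 1 subclone of Gata1-null G1E cells, and it carries GATA1 fused to an estrogen receptor domain. All 10 libraries came from this line in the same medium, IMDM with FBS, SCF and erythropoietin, and about 50000 cells went into each. The 5 groups were untreated cells (0 h) and cells in β-estradiol at 1e-07 M for 2, 6, 12 or 24 h, with 2 libraries each. The study describes the 2 libraries of a time point as independent experiments in this line, so the spread between them is that of repeats of 1 clone.

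GATA1 and GATA2 are zinc finger factors that bind the same GATA sequence. In erythroid maturation GATA1 replaces GATA2 at many sites, and genes of the progenitor and mast cell state, Gata2 and Kit among them, are turned down while globin and heme genes are turned up. At many erythroid enhancers GATA1 or GATA2 sits beside TAL1, a basic helix-loop-helix factor whose CTG sequence lies a short fixed distance from the GATA sequence. Distal open regions of this kind are often enhancers, and their opening and closing accompanies changes in which factors are bound.

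The DNA of the 24 h-absent regions was rich in GATA sequences. The GATA match searched was AGATAA or TGATAA on either strand, and the TAL1-GATA composite was CTG followed by 7 or 8 bases and a GATA match. Of the 7 sequences printed here, 4 hold a composite. They are shown because the composite was the arrangement searched for that pairs TAL1 with a GATA factor. Each is the + strand of GRCm38.p6 (mm10) from 100 bp before to 100 bp after the mean summit, read from the reference genome, with the GATA matches and the composites in capitals.
Angpt1 intron, chr15:42483199-42483399: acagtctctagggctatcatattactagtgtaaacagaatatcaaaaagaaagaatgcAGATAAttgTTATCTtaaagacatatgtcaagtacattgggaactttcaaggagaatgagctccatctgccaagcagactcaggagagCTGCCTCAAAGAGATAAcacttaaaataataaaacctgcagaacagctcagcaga
Angpt1 exon, chr15:42523425-42523625: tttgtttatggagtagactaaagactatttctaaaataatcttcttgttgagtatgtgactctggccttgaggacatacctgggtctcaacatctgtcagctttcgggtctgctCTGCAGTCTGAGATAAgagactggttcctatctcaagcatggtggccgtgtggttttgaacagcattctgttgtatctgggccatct
Rsl24d1 distal, chr9:73380856-73381056: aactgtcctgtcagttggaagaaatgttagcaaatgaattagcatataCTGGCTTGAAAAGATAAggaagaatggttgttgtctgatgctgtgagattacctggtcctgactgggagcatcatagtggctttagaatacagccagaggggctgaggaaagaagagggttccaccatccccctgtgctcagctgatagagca
Cd200r3 intron, chr16:44951872-44952072: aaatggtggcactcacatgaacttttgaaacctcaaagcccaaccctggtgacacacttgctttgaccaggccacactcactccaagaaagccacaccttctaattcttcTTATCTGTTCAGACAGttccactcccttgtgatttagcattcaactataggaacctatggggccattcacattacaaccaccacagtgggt
Both Angpt1 sequences lie inside the gene for angiopoietin-1, the ligand of the Tie2 receptor, at 193 kb and 153 kb from its nearest transcript start. The first holds 3 GATA matches, 1 of them in a composite. The Rsl24d1 sequence is intergenic, 266 kb from the nearest start. The Cd200r3 sequence lies in an intron of a receptor gene of the CD200R family, which is expressed in mast cells and basophils.

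The remaining 3 sequences hold GATA matches and no composite, and were taken from the regions named below for their rank or for a gene list, by their number of GATA matches and then their mean rank. Regions named on other grounds or overlapping an untranslated exon were not considered.
Slc45a3 distal, chr1:131942821-131943021: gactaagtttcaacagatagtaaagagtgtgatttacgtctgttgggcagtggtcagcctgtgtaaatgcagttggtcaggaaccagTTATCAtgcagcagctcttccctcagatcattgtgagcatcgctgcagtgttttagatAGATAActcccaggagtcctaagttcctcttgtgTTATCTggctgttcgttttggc
Lmo4 distal, chr3:144356296-144356496: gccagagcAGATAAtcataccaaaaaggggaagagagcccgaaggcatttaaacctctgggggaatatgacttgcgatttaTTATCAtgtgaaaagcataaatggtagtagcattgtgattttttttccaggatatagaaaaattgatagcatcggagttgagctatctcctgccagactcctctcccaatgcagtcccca
Hs6st1 distal, chr1:36130430-36130630: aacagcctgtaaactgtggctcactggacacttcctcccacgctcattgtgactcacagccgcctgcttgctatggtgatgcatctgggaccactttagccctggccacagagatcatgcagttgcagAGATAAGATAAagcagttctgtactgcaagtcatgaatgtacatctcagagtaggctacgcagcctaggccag
The Slc45a3 sequence has 3 separate GATA matches in this stretch. The Hs6st1 sequence has 2 that overlap in a single run. These regions were intergenic, at 19.8 kb from the nearest start for Slc45a3, 61.8 kb for Hs6st1 and 151 kb for Lmo4, the gene of a LIM-only transcription cofactor.

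The deposited lists held only summit positions and a score, so "absent" means not called as a peak. The lists ranged from 10697 peaks (24 h replicate 2) to 19855 (6 h replicate 2), and the sequencing depth behind them is unknown. Of the 3475 regions, 765 were absent from 24 h replicate 1 and 1431 from the shorter list of 24 h replicate 2. The part of list size in the membership was therefore examined with every list cut to its 10697 highest-scoring peaks. At equal size, 261 of 2039 distal regions (12.8%) met the same rule, and 168 of the 551 (30.5%) overlapped one of these 261. The promoter of the erythropoietin receptor gene Epor was listed in all 10 libraries, that of the stem cell factor receptor gene Kit in 9, that of Klf1 in 4, that of Tal1 in 2 and that of Gata1 in 1, and none held those of Alas2, Slc4a1, Ms4a2 or Cpa3. No list held the lymphoid promoters Cd3e and Cd79a, whereas 8 held that of the fibroblast marker Col1a1 and 3 that of Pdgfra.

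Most 24 h-absent regions met the rule narrowly. Of the 551, 89 (16.2%) were in all 8 earlier lists, 174 (31.6%) in 7 and 288 (52.3%) in 6. The share of distal regions in neither 24 h list went with the number of earlier lists that held them, at 5.42% for 8 lists, 19.3% for 7, 30.9% for 6 and, just outside the rule, 40.0% for 5. Of the members with 6 earlier lists, the region near Lmo4 and a region in an intron of Tbx21, which encodes the T cell factor T-bet, had the best mean ranks, 72.8 and 72.1. Just outside the rule, with 5 earlier lists, stood regions near the urate transporter gene Slc2a9 (mean rank 84.9) and the forkhead factor gene Foxc1 (74.6). Rank here is the percentile of a region's score inside its own list, with 100 the best.

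Not every member was still listed at 12 h. Of the 551 regions, 280 (50.8%) were in both 12 h lists, 230 (41.7%) in 1 of the 2 and 41 (7.44%) in neither, so these 41 were already unlisted at 12 h. At 0 h, 406 (73.7%) were in both lists, 124 (22.5%) in 1 and 21 (3.81%) in neither. By library, the replicate 1 lists of 0, 2, 6 and 12 h held 90.0%, 90.4%, 73.1% and 68.6% of the 24 h-absent regions, and the replicate 2 lists 79.9%, 88.9%, 98.2% and 74.8%. The corresponding shares over all 3475 regions were 92.5%, 94.1%, 87.5% and 89.7% in replicate 1 and 79.5%, 90.6%, 98.8% and 87.7% in replicate 2. The members were thus listed about as often as the 3475 at 0 h and less often in both 12 h libraries. These shares were partly set by the rule and carry no test.

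The regions held by all 8 earlier lists could be ranked at every time. For the 89 such 24 h-absent regions, the median ranks in the replicate 1 lists of 0, 2, 6 and 12 h were 64.0, 54.9, 40.7 and 42.4. In the replicate 2 lists they were 46.7, 59.6, 57.5 and 35.9. The 12 h value was below the 0 h value in both replicates, while the order of the times between them differed. From 0 h to 12 h, 67 of the 89 (75.3%) ranked lower in replicate 1, with a median difference of -23.1 points, and 56 (62.9%) in replicate 2, with -11.9 points. Among 1216 24 h-present regions, 45.9% and 38.8% ranked lower and the median differences were 1.32 and 3.65 points. The 336 24 h-discordant regions had -2.56 and -0.71 points. The same lists chose these regions, the sets are defined by their 24 h lists, and the lists compared differ in length, so these ranks are a description with no test.

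**Figure D1:**
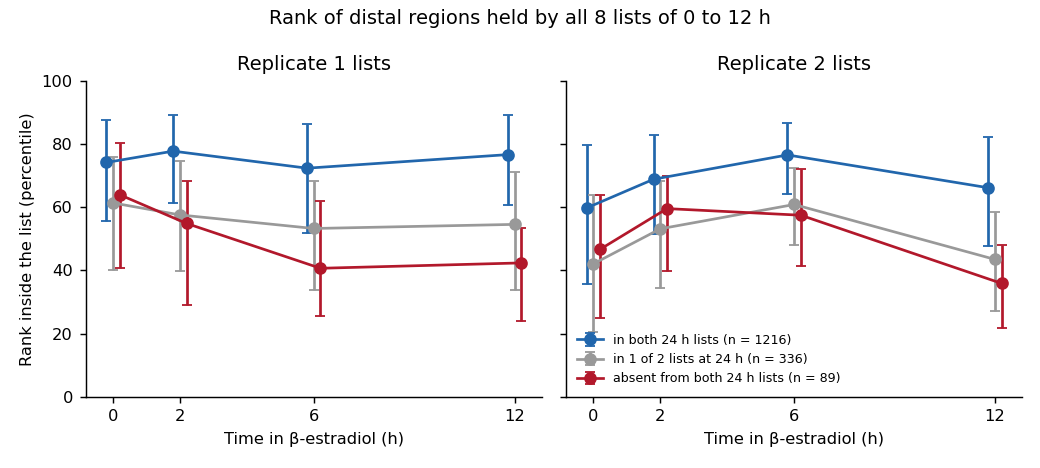
Rank inside the list (percentile, 100 the best) against hours in β-estradiol for distal regions held by all 8 lists of 0 to 12 h, with replicate 1 lists at left and replicate 2 lists at right. Points are medians over regions and bars span the quartiles. The red 24 h-absent regions (n = 89) lie at 42.4 and 35.9 at 12 h, below 64.0 and 46.7 at 0 h, while the blue 24 h-present regions (n = 1216) lie at 76.7 and 66.2.

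A description free of the values that chose the regions came from choosing in 1 replicate number and reading in the other. Distal regions in at least 3 of the 4 earlier lists of replicate 1 were divided by that replicate's own 24 h list. Of the 1184 absent from it, the replicate 2 lists of 0, 2, 6, 12 and 24 h held 48.6%, 60.0%, 79.8%, 49.5% and 20.9%. Of the 3253 listed in it, they held 66.1%, 77.7%, 93.6%, 77.2% and 59.5%. The shares of both groups moved with list size, and the absent group had the lower share at every time. When the lists were of equal size, the 747 absent regions had 62.2%, 63.5%, 59.4%, 56.1% and 39.0%, and the 1866 listed regions had 74.9%, 78.3%, 80.3%, 77.8% and 74.4%. The share of the absent group at 24 h was then the lowest of its 5 values, and that of the listed group differed little from its 0 h value.

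The opposite choice gave like values at equal list size. For 806 regions absent from the 24 h replicate 2 list, the replicate 1 lists held 70.8%, 56.9%, 53.7%, 50.9% and 35.9% from 0 h to 24 h. For 1677 regions listed there they held 83.8%, 84.0%, 82.0%, 83.6% and 79.2%. With full lists, 49.1% of 1933 regions absent from 24 h replicate 2 were in the 24 h list of replicate 1. Absence in a single 24 h list was therefore often not shared by the other, and no test was made of these shares, since regions of 1 library are not replicates.

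**Figure D2:**
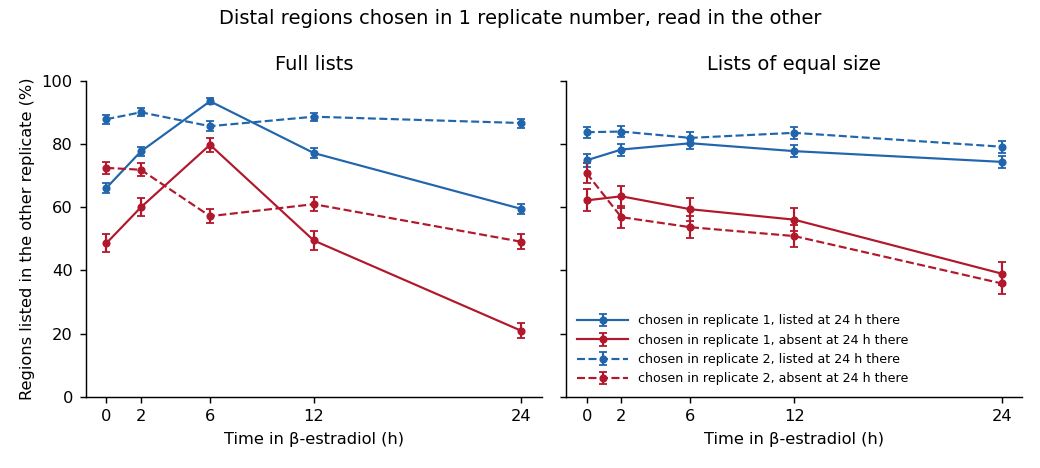
Percent of distal regions listed in the replicate number that did not choose them, against hours in β-estradiol, for full lists (left) and lists of equal size (right). Red marks regions absent from the choosing replicate's 24 h list and blue those listed in it, solid lines are chosen in replicate 1 and dashed in replicate 2, and bars are exact 95% binomial intervals over regions. At equal size the red lines end at 39.0% and 35.9% at 24 h and the blue lines at 74.4% and 79.2%.

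By place inside or between genes the 24 h-absent regions were close to distal regions in general, but they lay farther from starts. In the annotation 280 (50.8%) were intronic, 254 (46.1%) intergenic and 17 (3.09%) exonic, with 50.4%, 45.6% and 3.99% of all distal regions and 44.8%, 50.4% and 4.81% of the 24 h-present regions. Of the 24 h-discordant regions 47.6% were intergenic. The median distance of the 24 h-absent regions to a protein-coding start was 23.3 kb, beside 18.3 kb for all distal regions. It was 18.2 kb for the 24 h-discordant, 16.4 kb for the 24 h-present and 27.2 kb for the early-lost regions. More than 50 kb from a start lay 30.1% of the 24 h-absent and 21.7% of all distal regions. Of the 24 h-absent regions, 59 (10.7%) had another member within 50 kb and 128 (23.2%) had a 24 h-present region within 50 kb. The sets differ in size and the like shares were not computed for other regions. These counts therefore do not show whether the members were clustered or scattered. The mean GC content of the 200 bp around the summit was 47.1% in the 24 h-absent regions, 50.9% in the 24 h-discordant, 53.4% in the 24 h-present and 44.5% in the early-lost regions. In all distal regions it was 49.0%.

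A GATA match lay in the central 200 bp of 389 of the 551 24 h-absent regions (70.6%, exact 95% interval 66.6% to 74.4%, which covers the counting of regions only). The share was 51.1% in the 24 h-discordant, 47.2% in the 24 h-present, 80.0% in the early-lost and 39.0% in all distal regions. At least 2 matches were in 35.8% of the 24 h-absent, 17.1% of the 24 h-present and 48.3% of the early-lost regions. By the GATA share, the 24 h-absent regions thus stood between the 24 h-present and the early-lost regions. Among the members themselves, 65.7% of the 280 in both 12 h lists had a match, as did 74.8% of the 230 in 1 list and 80.5% of the 41 in neither. The matches read AGATAA in 65.0% of cases in the 24 h-absent regions and in 63.6% in the 24 h-present regions.

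The TAL1-GATA composite was in 125 members (22.7%), in 13.0% of the 24 h-discordant, 14.2% of the 24 h-present, 21.6% of the early-lost and 7.51% of all distal regions. Taken over the regions with a GATA match alone, it was in 32.1% of the 24 h-absent, 25.4% of the 24 h-discordant, 30.1% of the 24 h-present, 27.0% of the early-lost and 19.3% of all distal regions. Counted this way, the 24 h-absent and 24 h-present regions lay close together. An E-box (CAGNTG), the general basic helix-loop-helix sequence, was in 51.9% of the 24 h-absent, 46.9% of the 24 h-present and 48.3% of all distal regions.

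The other motifs were less frequent. A match for RUNX (TGTGGT or TGCGGT), the family of RUNX1, was in 27.9% of the members and 25.9% of the 24 h-present regions. AP-1 (TGACTCA or TGAGTCA) was in 6.53% and 7.92%, and ETS (CCGGAAGT, ACAGGAAG or AGAGGAAG), the family of PU.1 and FLI1, in 7.26% and 10.3%. KLF (CCCCACCC or CCCCGCCC), the family of the erythroid factor KLF1, was in 5.44% of the 24 h-absent, 10.1% of the 24 h-discordant, 13.8% of the 24 h-present and 2.67% of the early-lost regions. The share of all distal regions, 7.14%, was near that of the members. The CTCF consensus, which marks insulators and loop anchors, was in 3.09% of the members, 3.28% of the 24 h-present and 8.05% of all distal regions. Within the members it was in 5 of 389 with a GATA match (1.29%) and 12 of 162 without one (7.41%). All motifs were read on both strands, matches of different motifs could overlap, and a match describes letters and not a bound factor.

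**Figure D3:**
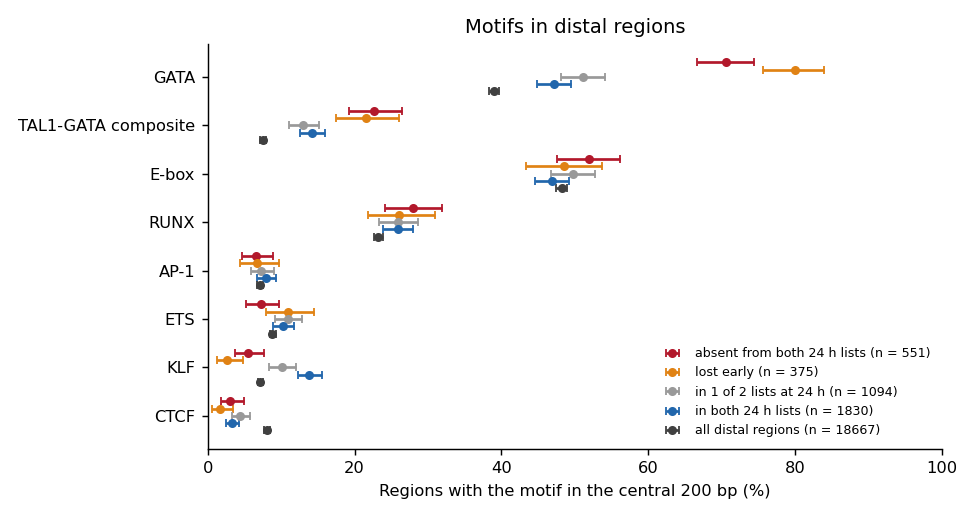
Percent of distal regions with each motif in the central 200 bp, for 5 sets of regions, with exact 95% binomial intervals over regions. GATA matches are in 70.6% of the red 24 h-absent regions, 80.0% of the orange early-lost, 51.1% of the grey 24 h-discordant, 47.2% of the blue 24 h-present and 39.0% of all distal regions, while the sets lie close together for the E-box and AP-1. The 41 regions shared by the 24 h-absent and early-lost sets are in both.

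The GATA share went with the rank of the members. When the 3475 regions were divided into 4 classes of equal size by mean rank in the earlier lists, the share of 24 h-absent regions with a GATA match was 59.8% of 251 in the lowest class, 71.7% of 166 in class 2, 87.9% of 99 in class 3 and 94.3% of 35 in the highest. In the 24 h-present regions it was 37.8%, 44.9%, 50.3% and 49.0%, and in the 24 h-discordant regions 46.0%, 47.7%, 55.4% and 78.7%. Nearly all of the high-ranking members therefore held a GATA sequence. When the 2039 regions of the lists of equal size were divided into 4 classes of their own, the members gave 62.7%, 74.7%, 98.1% and 90.0%, the last from 10 regions, and those of the 24 h-present regions 44.3%, 46.6%, 51.4% and 45.3%.

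GC content moved with both the set and the GATA share. The 3475 regions were also divided into 3 classes of equal size by GC content. In the class with the lowest GC, 82.2% of the 24 h-absent and 64.5% of the 24 h-present regions had a GATA match. In the middle class the shares were 64.0% and 56.4%, and in the class with the highest GC they were 32.9% and 30.1%. The sets thus lay apart at low GC and together at high GC, and the part of base composition in the difference was not tested. The divisions by rank and by GC were chosen after seeing the data.

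**Figure D4:**
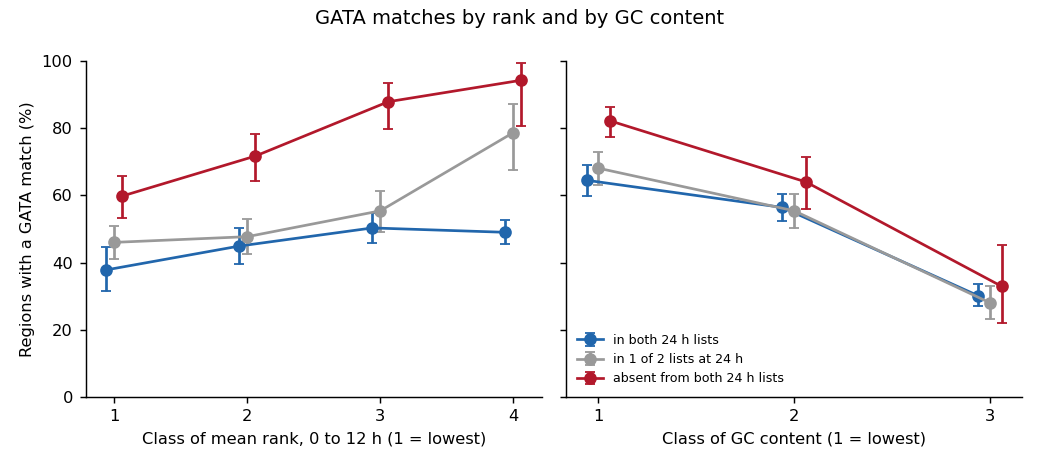
Percent of distal regions with a GATA match in the central 200 bp, by class of mean rank in the lists of 0 to 12 h (left) and by class of GC content (right), with class 1 the lowest, for 24 h-absent (red), 24 h-discordant (grey) and 24 h-present (blue) regions. Bars are exact 95% binomial intervals over regions. The red points go from 59.8% to 94.3% with rank and from 82.2% to 32.9% with GC, where they meet the blue point at 30.1%.

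The GATA matches were gathered at the summits. In the 24 h-absent regions there were 0.728 matches per region within 50 bp of the mean summit on either side and 0.151 at 200 to 250 bp from it. In the 24 h-present regions the values were 0.395 and 0.0956. The 24 h-absent regions had more matches at every distance read, as at 100 to 150 bp, with 0.321 beside 0.169. The difference in matches per region was largest near the summit, where both sets had the most matches, so the excess was not confined to the summit. The summits of the lists that held it spread over a median of 183 bp within a 24 h-absent region and 210 bp within a 24 h-present region. This spread is a range, which grows with the number of lists. By the rule the 24 h-absent regions were in no more lists than the 24 h-present regions, so the 2 values are not comparable.

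**Figure D5:**
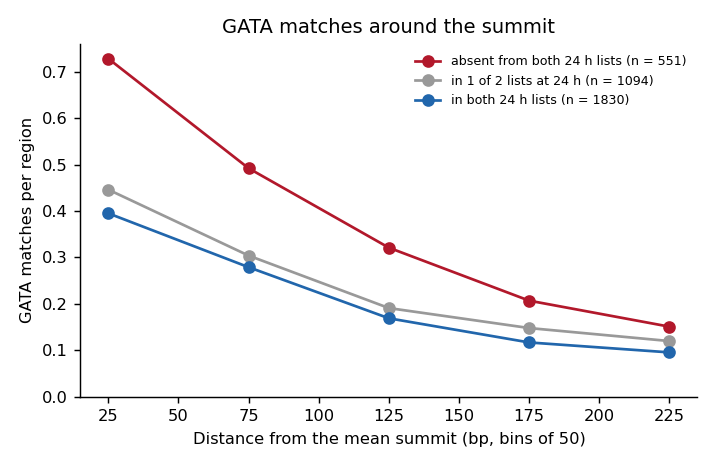
GATA matches per region in bins of 50 bp of distance from the mean summit, both sides together, for 24 h-absent (n = 551), 24 h-discordant (n = 1094) and 24 h-present (n = 1830) regions. The red line of the 24 h-absent regions goes from 0.728 beside the summit to 0.151 at 200 to 250 bp, and the blue line of the 24 h-present regions from 0.395 to 0.0956.

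A group of 10 members was in all 8 earlier lists with the best worst rank. The highest by mean rank (81.5) was the intergenic region near Slc45a3, a gene of the solute carrier family (chr1:131942607-131943197), with ranks of 95.9, 86.8, 73.5 and 46.7 in the replicate 1 lists of 0, 2, 6 and 12 h and 85.6, 86.3, 94.2 and 83.1 in those of replicate 2. Its rank was high in 7 of the 8 lists and low at 12 h in replicate 1. The region near Rsl24d1 (chr9:73380680-73381262) had 89.3, 64.9, 63.8 and 48.6 in replicate 1 and 90.6, 73.2, 91.6 and 76.7 in replicate 2. Its lowest value was likewise at 12 h in replicate 1. The region near Hs6st1, which encodes a heparan sulfate sulfotransferase (chr1:36130213-36130833), had 90.4, 92.0, 70.1 and 62.5 and, in replicate 2, 70.7, 69.6, 51.0 and 48.1, with both 12 h values below both 0 h values.

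A region in an intron of Tmem131l (chr3:84027701-84028320) had ranks of 94.2, 87.6, 73.3 and 51.5 in replicate 1 and 50.0, 69.8, 65.0 and 84.6 in replicate 2 at the same 4 times. Here the replicates went opposite ways between 0 h and 12 h. The other 6 of these regions had mean ranks from 59.9 to 66.0 and lay near or in Fhdc1, Acsl1 (a fatty acid CoA ligase), Hrh4 (a histamine receptor), Gpx7 (a glutathione peroxidase), Il12rb2 (a chain of the interleukin-12 receptor) and, for the region nearest to Nt5c2, in an intron of Cnnm2. All 10 held a GATA match. The rule that named them used rank and not GATA matches, but the GATA share went with rank. In classes 3 and 4 of mean rank, where these 10 fell, 87.9% and 94.3% of the members held a match.

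The 24 h-absent regions had 514 nearest genes, 2.37% of 21670 protein-coding genes. The 24 h-discordant regions were nearest to 4.51% of all genes and the 24 h-present regions to 7.15%. Of these genes, 35 were nearest to 2 or more members and 2, Angpt1 and Rapgef2, to 3. The best-ranked Angpt1 region (chr15:42482964-42483658, intronic) ranked 79.8, 69.7 and 61.1 in the replicate 1 lists of 0, 2 and 12 h, was missing from that of 6 h, and ranked 76.6, 87.4, 81.9 and 51.8 in the 4 lists of replicate 2. The exonic Angpt1 region (chr15:42522991-42523921) had 84.9, 54.3, 89.5 and 67.2 in replicate 2, and in replicate 1 it had 91.1 before treatment and 48.2 at 2 h, its lowest value of all at 6 h, and no summit at 12 h. The third (chr15:42463275-42463962, intronic) ranked lower, with a mean of 30.2. All were unlisted at 24 h by the rule, while within 50 kb of them the 2 other regions of the locus gave 1 listed region in each 24 h library and 1 in each 0 h library.

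Rapgef2, a nucleotide exchange factor for the small GTPase Rap1, had 3 intergenic members at 83.1, 116 and 127 kb from its start, with mean ranks of 48.5, 49.0 and 43.0. Of 5 other regions around them, 24 h replicate 1 listed 3 and replicate 2 none. Near Cd55b, a gene of a complement regulator, stood 2 members with mean ranks of 66.9 and 62.8. The former lay 360 kb from its start, in an intron of Thsd7b, and held 5 GATA matches, and the latter was intergenic at 140 kb. Nova1, which encodes a neuronal splicing factor, was the nearest gene of 2 members at 301 and 1268 kb, so that here too the nearest start is only a label. Mbp and Pabpc2 had 2 each, and 1 of the Pabpc2 regions had a mean rank of 76.4.

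Of 44 erythroid genes in the annotation, 4 (9.09%) were nearest to a 24 h-absent region, 8 (18.2%) to a 24 h-discordant and 15 (34.1%) to a 24 h-present region, beside 2.37%, 4.51% and 7.15% of all genes. Among them were Add2 and Ank1, which encode the membrane skeleton proteins β-adducin and ankyrin, and Gata1. The Add2 region (chr6:86103456-86104071, intronic) was in 7 lists, with ranks of 90.5, 86.3, 17.8 and 51.1 in replicate 1 over 0, 2, 6 and 12 h and 61.0, 68.9 and 66.6 in replicate 2 over 0, 2 and 6 h. Its highest rank was before treatment, and it was missing from 12 h replicate 2. The Gata1 region (chrX:7971157-7971879), in an intron of the gene that is disrupted in these cells, ranked between 2.80 and 27.5 in the 6 lists of 0 to 6 h and was in neither 12 h list. The Ank1 region had a mean rank of 28.9.

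Of 31 mast cell and basophil genes, 4 (12.9%) were nearest to a member, 5 (16.1%) to a 24 h-discordant and 5 (16.1%) to a 24 h-present region. The shares over all genes were 2.37%, 4.51% and 7.15%. The Cpa3 region (chr3:20243798-20244445), 1.62 kb from the start of the gene for the mast cell protease carboxypeptidase A3, had ranks of 73.2, 74.8 and 14.3 in replicate 1 over 0, 2 and 6 h, no summit in its 12 h list, and 86.5, 90.3, 75.9 and 54.8 in replicate 2. It was high in 5 of its 7 lists and held 2 GATA matches. Rgs1, a regulator of G protein signalling, had a member inside the gene and another at 69.0 kb, with mean ranks of 31.4 and 39.1. The Cd200r3 and Cma1 (mast cell chymase) regions had 29.7 and 41.3.

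Of 38 stem and progenitor factor genes, 4 (10.5%) were nearest to a member, 9 (23.7%) to a 24 h-discordant and 12 (31.6%) to a 24 h-present region. All 3 shares were above those over all genes, 2.37%, 4.51% and 7.15%, as they were for the erythroid list. The Lmo4 region (chr3:144356059-144356896) had ranks of 93.6, 80.5, 80.7 and 53.0 in replicate 2, and 70.7 and 58.3 in the 0 and 2 h lists of replicate 1, whose later lists had no summit there. The Myc region lay 236 kb from the start of this growth regulator gene (chr15:62222983-62223692) and ranked 77.7, 27.0 and 53.4 in replicate 1 over 0, 2 and 12 h and 44.7, 73.5, 62.9 and 30.6 in replicate 2. Its order over time thus differed between the replicates. The regions of the zinc finger factor genes Ikzf1 and Ikzf2 had mean ranks of 33.2 and 52.2.

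Of 51 cytokine signalling genes, 2 (3.92%) were nearest to a member, 9 (17.6%) to a 24 h-discordant and 7 (13.7%) to a 24 h-present region. Stat5a, a transducer of erythropoietin receptor signals, had a member in its own intron, 4.96 kb from a start (chr11:100865441-100866150), and another in an intron of the neighbouring gene Stat3. The first ranked 69.2, 68.9 and 6.69 in replicate 1 over 0, 2 and 12 h and 60.3, 52.8, 28.2 and 41.9 in replicate 2. Both 12 h values were below both 0 h values. The other gene was Jak1, which encodes a cytokine receptor kinase, with an intronic region of mean rank 30.8. Of 27 megakaryocyte genes, 2 (7.41%) were nearest to a member, 4 (14.8%) to a 24 h-discordant and 4 (14.8%) to a 24 h-present region. Over all genes the shares were 2.37%, 4.51% and 7.15%. The 2 near members were Angpt1 and Plek, which encodes the platelet protein pleckstrin (mean rank 51.9). Of 41 genes whose promoters the study captured, and which it chose itself, 5 (12.2%) were nearest to a member, 7 (17.1%) to a 24 h-discordant and 14 (34.1%) to a 24 h-present region. They were Cpa3, Rgs1, Cldn13, Sept9 and Tmem44, and the last 3 had mean ranks of 44.1, 18.2 and 29.2.

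The promoters near the 24 h-absent regions took no part in their choice and could be tested. In each library the share of the 514 nearest genes with a summit within 1 kb of a start was set against the share over all genes. The nearest genes were above all genes by 17.0, 15.6, 14.7, 13.2 and 15.1 percentage points in the replicate 1 lists of 0, 2, 6, 12 and 24 h and by 13.1, 15.9, 20.0, 16.1 and 14.0 points in those of replicate 2. The 24 h values lay within the range of the earlier ones. The mean was 14.5 ± 0.819 points (SD, n = 2) at 24 h and 15.7 ± 2.20 (SD, n = 8) before, a difference of -1.16 points (exact permutation test, two-sided, p = 0.533, adjusted p = 0.800 over 2 tests). For 1558 genes with a start within 100 kb of a member the means were 14.8 ± 2.20 and 15.1 ± 1.34 points, a difference of -0.396 (exact permutation test, p = 0.800, adjusted p = 0.800). With 2 libraries against 8 the smallest p possible was 0.0444, so only the most extreme arrangement could have passed 0.05.

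Gene by gene, the promoter nearest to a member was in both 24 h lists for 232 of the 551 (42.1%), in 1 for 92, and in neither for 227 (41.2%). Of those in neither, 190 were in none of the 10 lists. At 24 h, the promoters of 37.8% of all protein-coding genes were listed in replicate 1 and 35.5% in replicate 2. Of the 514 nearest genes, 52.9% and 49.4% were listed. The share in neither 24 h list was not computed over all genes. Of 256 nearest genes whose promoter was in at least 6 earlier lists, 3 (1.17%) were in neither 24 h list, namely Cd200r3, Mbnl1 (a splicing regulator) and Rreb1 (a zinc finger factor). The share over all protein-coding genes was 138 of 7894 (1.75%).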

How the data were processed

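ATAC-seq was carried out in 10 libraries of G1E-ER4 cells, grouped by the time and replicate number in the sample titles. The authors trimmed and aligned the reads to mm10, retained those with a single location and called peaks in each library with MACS2 (no fragment model). Bowtie2 is named in the methods, whereas the submitters' processing notes list Bowtie 1.0.0, MACS2 and Picard, with no role given for Picard. No shift for the Tn5 cut is stated, so a summit may be off by a few bases. Each deposited list gives 1 bp summits with a score, −log10 of the q-value within that library, of at least 1.30. The score rises with depth and is not scaled between libraries, so it was used only as a rank. The lists hold no read counts or widths.

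The 146915 summits on chromosomes 1 to 19 and X were extended by 250 bp on each side and merged, and 73 on Y or the mitochondrial genome were left out. Starts were those of GENCODE M21 protein-coding transcripts (54050 starts of 21670 genes), and the reference was GRCm38.p6. Location, GC content and motifs were read at the mean summit. Named regions were the 10 members in all 8 earlier lists with the best worst rank, members whose nearest gene is in a gene list, members of up to 6 genes with the most members, and 2 on each side of the threshold by mean rank. The members and lists were chosen with earlier results of these data known. The only tests were 2 exact permutation tests over libraries with Benjamini-Hochberg adjustment. Alternatives were window, list size, score, start distance, number of lists, bases scanned, promoter and gene distance, the replicate block and each library left out. Scripts used Python 3.11.15, numpy 2.4.6, pandas 2.3.3 and scipy 1.17.1 and were checked on simulated data. Some named genes and a sequence that the rule selects are not reported here.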

Additional observations from a re-analysis of the deposited data

How the results depend on the processing

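The number of 24 h-absent regions depended most on the lists used. It was 261 instead of 551 with lists of equal size and 89 when all 8 earlier lists were required, and 606 to 1431 with 1 library left out. When an earlier library was left out, 2 missing earlier lists were still allowed. When a 24 h library was left out, absence from the other was enough. The rule was looser each time, so these counts could not be expected to fall below 551. The highest, 1431, came without 24 h replicate 1, when absence from the short list of 24 h replicate 2 alone was enough. The GATA share (70.6%) was 75.1% with equal lists, 75.3% with all 8 lists, 53.5% in 100 bp, 81.1% in 400 bp, and 56.5% to 71.7% with 1 library left out. The composite share (22.7%) was 11.6% in 100 bp, 27.6% in 400 bp, and 16.4% to 21.7% with 1 library left out. Of the values with 1 library left out, the lowest GATA and composite shares were those without 24 h replicate 1. The intergenic share moved by less than its interval under all 16 alternatives run. Of regions chosen in 1 replicate and absent from its 24 h list, the share listed in the other replicate's 24 h list was 20.9%, 39.0% with equal lists and 49.1% when replicate 2 chose.

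The nearest-gene promoter difference stayed negative under its 17 alternatives, and its p stayed above the threshold of 0.05. With the replicate block, the 24 h label was assigned within each replicate number, and the differences stayed at -1.16 points (exact permutation p = 0.560) and -0.396 points (exact permutation p = 0.960). The 25 assignments of the block allow no p below 0.0800. The difference within 100 kb was 0.873 points without 24 h replicate 2 and ranged from -1.59 to 0.873 points with 1 library left out. No alternative brought either p below the threshold of 0.05. With 1 library left out, as with the block, there were too few assignments for any p below it. Those runs could not have passed, so only the sign and size of their differences can be read. The unknown depth limits every statement on absence: a region not called at 24 h may be open below the calling threshold.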
